A study of Mus musculus with 30 samples.

Results

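The cyclin-dependent kinase inhibitor locus Cdkn2a and the p53 pathway were followed through 10 genes of the 53431 in the count table, chosen by name: Cdkn2a, Cdkn2b and Mtap, which lie side by side on chromosome 4, the kinase inhibitors Cdkn2c, Cdkn1a and Cdkn1b, the retinoblastoma gene Rb1, and Trp53, Mdm2 and Ccng1. CT-26 and Colon 26 are mouse colon carcinoma cell lines from the BALB/c strain that differ in their sensitivity to anti-PD-1 antibody, and RNA-seq was made of both in culture and as tumors. There were 3 cultures of each line and, in each model, 4 tumors of about 100, 4 of about 400 and 4 of about 800 mm3, which makes 30 libraries in 8 groups. For the tumors, cells were injected under the skin of the flank of BALB/c females. No allele was altered by design in either line. A treatment text shared by all samples describes dosing of mice with antibodies to CTLA-4, PD-1 and PD-L1, and no title or characteristic says which tumors, if any, were dosed, so whether a tumor was treated is not known here. The age of the mice is not given in the sources used here. The tumors were whole tissue and hold cells of the host, so a gene's level there is a mean over cancer cells and host cells. In such bulk samples fewer cells of a type and less RNA per cell cannot be told apart.

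The Cdkn2a gene is known to encode 2 unrelated tumor suppressors from separate first exons. p16Ink4a, together with its relatives p15Ink4b (Cdkn2b) and p18Ink4c (Cdkn2c), blocks the kinases Cdk4 and Cdk6 and so keeps the Rb protein active against E2F-driven entry into S phase. p19Arf binds Mdm2, the ubiquitin ligase that marks p53 for destruction, and so stabilizes p53, which in turn induces Mdm2 itself, Cdkn1a (p21, an inhibitor of cyclin-dependent kinases) and Ccng1 (cyclin G1). The locus is often deleted or silenced in cancer, and Mtap, an enzyme of methionine salvage next to it, is often deleted with it. RNA levels do not show whether a locus is present in the DNA.

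In the GENCODE annotation of GRCm38, Mtap occupied chr4:89137122-89181081 on the plus strand, Cdkn2a chr4:89274471-89294653 and Cdkn2b chr4:89306299-89311039, both on the minus strand. The gap between Mtap and Cdkn2a was 93390 bp and that between Cdkn2a and Cdkn2b 11646 bp. Cdkn2c lay far away on the same chromosome (chr4:109660876-109667189, minus strand). RefSeq promoter windows of GRCm38.p6 were found for 9 of the 10 genes, all but Rb1. The upstream sequences of the 2 Cdkn2a starts and of Cdkn2b are shown because these genes were at the floor of detection in culture, and those of Cdkn1a, Mdm2 and Ccng1 because these p53 targets were lower in tumors than in culture. Sequences read 5′ to 3′ in the direction of the gene, without bases annotated as exon. Capitals mark matches on either strand to the GC box GGGCGG, to CCAAT, to the TATA box letters TATAAA, to the E2F letters TTTCCCGC or to TTTGGCGC, and to the p53 half-site.
Cdkn2a, upstream start, chr4:89294654-89294869, minus strand: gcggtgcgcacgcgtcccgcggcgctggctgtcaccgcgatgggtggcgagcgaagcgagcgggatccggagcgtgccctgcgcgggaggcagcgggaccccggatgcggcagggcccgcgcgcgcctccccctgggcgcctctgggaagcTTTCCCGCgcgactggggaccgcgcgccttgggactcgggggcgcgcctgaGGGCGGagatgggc
Cdkn2a, downstream start, chr4:89282193-89282442, minus strand: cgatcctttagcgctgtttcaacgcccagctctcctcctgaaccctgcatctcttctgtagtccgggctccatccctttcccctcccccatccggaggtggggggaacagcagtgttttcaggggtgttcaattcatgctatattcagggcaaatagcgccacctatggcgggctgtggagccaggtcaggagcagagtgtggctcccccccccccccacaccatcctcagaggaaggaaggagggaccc
Cdkn2b, chr4:89311040-89311282, minus strand: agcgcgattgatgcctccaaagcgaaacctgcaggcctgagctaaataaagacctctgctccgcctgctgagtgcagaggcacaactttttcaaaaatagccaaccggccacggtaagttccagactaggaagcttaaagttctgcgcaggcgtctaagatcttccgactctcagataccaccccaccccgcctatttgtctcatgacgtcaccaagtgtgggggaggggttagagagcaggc
Cdkn1a, upstream start, chr17:29090729-29090975, plus strand: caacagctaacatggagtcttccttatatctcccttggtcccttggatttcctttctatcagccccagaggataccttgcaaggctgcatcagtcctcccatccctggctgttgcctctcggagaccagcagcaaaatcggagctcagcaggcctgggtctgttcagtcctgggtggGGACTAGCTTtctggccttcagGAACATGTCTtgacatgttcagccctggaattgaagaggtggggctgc
Mdm2, chr10:117710759-117711008, minus strand: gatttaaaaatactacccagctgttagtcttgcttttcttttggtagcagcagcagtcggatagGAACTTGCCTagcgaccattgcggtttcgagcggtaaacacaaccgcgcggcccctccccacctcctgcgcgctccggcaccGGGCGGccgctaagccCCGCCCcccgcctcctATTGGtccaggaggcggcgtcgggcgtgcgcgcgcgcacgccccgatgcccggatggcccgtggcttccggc
Ccng1, chr11:40755312-40755536, minus strand: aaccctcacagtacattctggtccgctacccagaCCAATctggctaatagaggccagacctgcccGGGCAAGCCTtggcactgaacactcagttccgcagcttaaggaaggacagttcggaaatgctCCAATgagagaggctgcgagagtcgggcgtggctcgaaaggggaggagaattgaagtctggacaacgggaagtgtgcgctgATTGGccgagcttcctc
The 250 bases before the upstream Cdkn2a start held 40 CpG dinucleotides and 78.4% G and C, against 7 CpG and 60.0% before its downstream start and 12 CpG and 53.6% before Cdkn2b. The median over all 32851 windows of this length was 6 CpG and 52.4%. The E2F letters TTTCCCGC stood before the upstream Cdkn2a start and in 0.895% of all windows. The p53 half-site was matched at 2 places before the upstream Cdkn1a start and once each before Mdm2, Ccng1 and Trp53, and in 7.13% of all windows. GGGCGG was found in 32.7%, CCAAT in 33.8% and TATAAA in 12.4% of all windows. A match describes the letters and does not show a bound site.

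Library totals were 21384730 to 39722586 counts, highest in the Colon 26 cultures (36042940 to 39722586) and lowest in the CT-26 cultures (21384730 to 27856380). Of the 11 colon epithelial markers, 4 were at no more than 3 counts in the CT-26 cultures (Epcam, Cdh1, Vil1 and Cdx1) and 5 in the Colon 26 cultures (Epcam, Cdh1, Krt18, Krt19 and Cdx1). The list summed to 47.2 to 48.4 CPM in CT-26 and 19.0 to 20.0 CPM in Colon 26 cultures. Markers of host cells were low in culture and high in tumors. The 6 leukocyte markers (Ptprc and others) summed to 4.74 to 9.94 CPM (counts scaled to library depth) in culture and to 255 to 895 CPM in tumors, and the 8 macrophage markers to 61.9 to 68.8 CPM in CT-26 cultures, 3.88 to 4.84 CPM in Colon 26 cultures and 317 to 2181 CPM in tumors. In the culture libraries Adgre1 was at no more than 3 counts in both lines and Csf1r, C1qa, C1qb and C1qc only in Colon 26. The 6 endothelial markers summed to at most 0.706 CPM in culture and 65.9 to 221 CPM in tumors, and the 6 T cell markers to at most 0.334 and 4.47 to 59.4 CPM. The 7 fibroblast markers were also present in culture (1198 to 1527 CPM, against 2155 to 4010 CPM in tumors), with Lum and Thy1 at no more than 3 counts there. The 5 skeletal muscle markers varied from 0.947 to 2484 CPM between tumors. The lowest macrophage sum belonged to a 400 mm3 CT-26 tumor and the highest muscle sum to a 400 mm3 Colon 26 tumor. The part of these cells in the differences between tumor and culture was not tested.

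Cdkn2a was almost absent from both cell lines in culture and low in all tumors. The CT-26 cultures held 0, 1 and 1 estimated counts of it and the 3 Colon 26 cultures 0 each. A count of 0 allows up to 3 counts per library, which is 0.125 CPM on average in the CT-26 cultures and 0.0756 CPM in the Colon 26 cultures. Such intervals and floors cover counting error only. CT-26 tumors of 100 mm3 held 8, 26, 4 and 12 counts, those of 400 mm3 18, 31, 11 and 17, and those of 800 mm3 20, 10, 12 and 6. Colon 26 tumors held 12, 32, 8 and 6 counts at 100 mm3, 14, 15, 23 and 21 at 400 mm3, and 17, 11, 32 and 16 at 800 mm3. Every tumor library was above every culture library of its model, and the tumor groups of both models overlapped one another. Gene counts do not separate the p16Ink4a from the p19Arf transcript.

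Cdkn2b, which encodes p15Ink4b, followed the same order. It had 1, 2 and 1 counts in the CT-26 cultures and 1, 0 and 0 in the Colon 26 cultures. Tumors held 6 to 28 counts in CT-26 and 13 to 43 in Colon 26. In FPKM, a level scaled to gene length and library depth, the group means of tumors were 0.451 to 0.802 for Cdkn2a and 0.366 to 0.679 for Cdkn2b, so the mean of both was below 1 FPKM in every group. The FPKM of Mtap was 69.6 to 97.0 over the single tumors.

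Tumors of 100 mm3 were set against cultures of the same line. In CT-26 the summed counts of Cdkn2a were 50 in the 4 tumors and 2 in the 3 cultures, a ratio of 16.6 per count sequenced (95% exact binomial interval 4.36 to 141). Cdkn2a was too low for the fit in that comparison, and the 2-sided exact permutation test gave p = 0.0571, the smallest p that 3 against 4 libraries allow. In Colon 26 the tumors (0.454 ± 0.290 CPM, SD, n = 4) were at least 6.01-fold higher than 3 counts per culture library. There the gene entered the fit only through the tumor libraries, so that the result describes the counts and adds no support to them, and was called differentially expressed (DE), here an adjusted p of at most 0.1 with a log2 fold change of at least 1 in size, by edgeR's quasi-likelihood test (adjusted p = 0.0011). Cdkn2b likewise passed the filter on low counts only through the tumors, and was DE in both models (edgeR adjusted p = 0.00028 and 2.4e-05). Its summed counts were 56 in tumors and 4 in cultures of CT-26, a ratio of 9.29 (interval 3.43 to 35.3), and 102 and 1 in Colon 26, a ratio of 103 (interval 18.1 to 4111). Leukocyte, macrophage, T cell and endothelial markers were higher in the same tumors, with 6 of 6, 7 of 8, 6 of 6 and 6 of 6 DE higher in CT-26 and 6 of 6, 8 of 8, 6 of 6 and 6 of 6 in Colon 26. Of all genes tested, 22.2% and 20.8% were DE higher. In the same order, 0, 1, 5 and 2 of these markers were at no more than 3 counts in CT-26 cultures and 3, 5, 6 and 5 in Colon 26 cultures. Such markers passed the filter on low counts only through the tumors, so their calls add no support to the counts. The part of host cells in the Cdkn2a and Cdkn2b counts of tumors was not tested.

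Within 1 Mb on either side of Cdkn2a the annotation held 71 genes, of which 70 were in the count table. Of these, 35 had no count in any culture and 19 reached 10 counts in at least 1 library. Mtap was the most abundant, with 2580 to 3365 counts in CT-26 cultures and 9353 to 10315 in Colon 26 cultures. Focad, on the other side of Mtap, had 996 to 1291 and 1668 to 1964 counts. Between Mtap and Cdkn2a, the noncoding Gm12606 held 2 to 9 counts in CT-26 and 5 to 10 in Colon 26 cultures. Beyond Cdkn2b the next gene above 10 counts was Dmrta1, a transcription factor gene, with 1 count in each CT-26 culture and 59 to 84 in the Colon 26 cultures. Low counts in culture were therefore not shared by Mtap, and Dmrta1 was expressed on the far side of the Cdkn2 genes in Colon 26. In CT-26 tumors Dmrta1 had 0 or 1 counts per library, and in Colon 26 tumors 8 to 16, 0 to 41 and 2 to 50 at the 3 sizes.

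**Figure D1:**
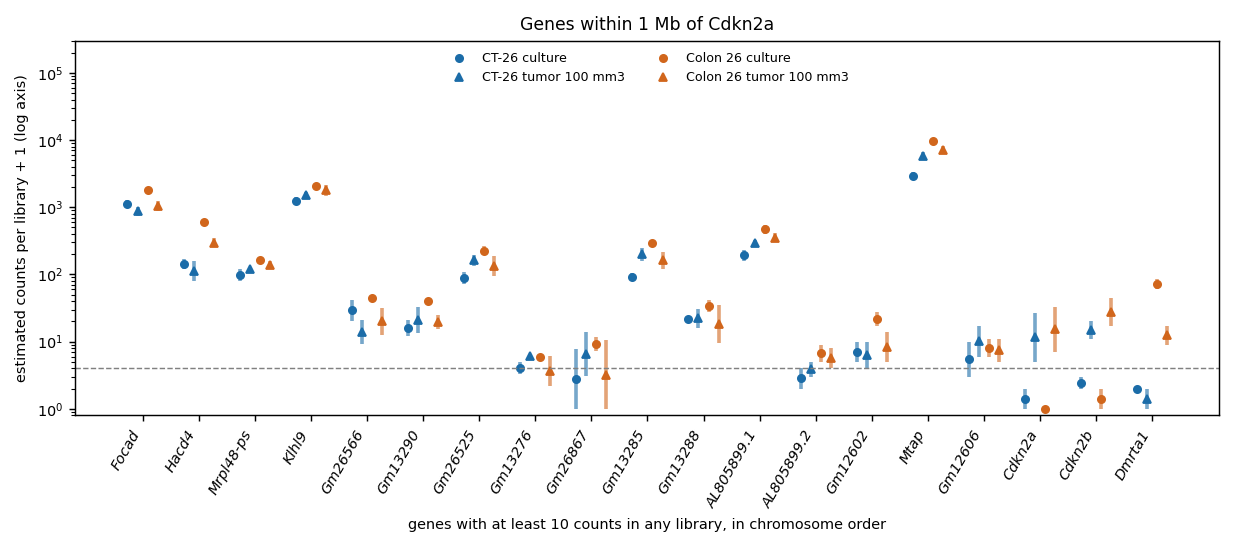
Estimated counts per library plus 1, on a log axis, of the 19 genes within 1 Mb of Cdkn2a that reached 10 counts in any library, in chromosome order. Bars run from the lowest to the highest library of a group, the symbol is their geometric middle, and the dashed line marks 3 counts. Cdkn2a and Cdkn2b sit below it in all cultures (0 to 2 counts) and above it in all tumors of 100 mm3, while Mtap is at 2580 counts or more in all of these libraries.

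The other members were expressed in all libraries. In CT-26 cultures the order by FPKM was Cdkn1a (206 ± 4.94, SD, n = 3), Mdm2 (118 ± 3.29), Ccng1 (85.8 ± 2.04), Trp53 (44.9 ± 0.190), Mtap (42.4 ± 1.37), Cdkn1b (11.7 ± 0.148), Cdkn2c (10.7 ± 1.10) and Rb1 (10.4 ± 0.389). The libraries of Cdkn1b and Cdkn2c overlapped, as did those of Cdkn2c and Rb1. In Colon 26 cultures it was Cdkn1a (181 ± 1.42), Ccng1 (154 ± 6.73), Mdm2 (95.3 ± 0.867), Mtap (91.8 ± 1.81), Trp53 (86.2 ± 0.505), Cdkn2c (32.3 ± 0.622), Cdkn1b (13.5 ± 0.374) and Rb1 (7.99 ± 0.117).

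**Figure D2:**
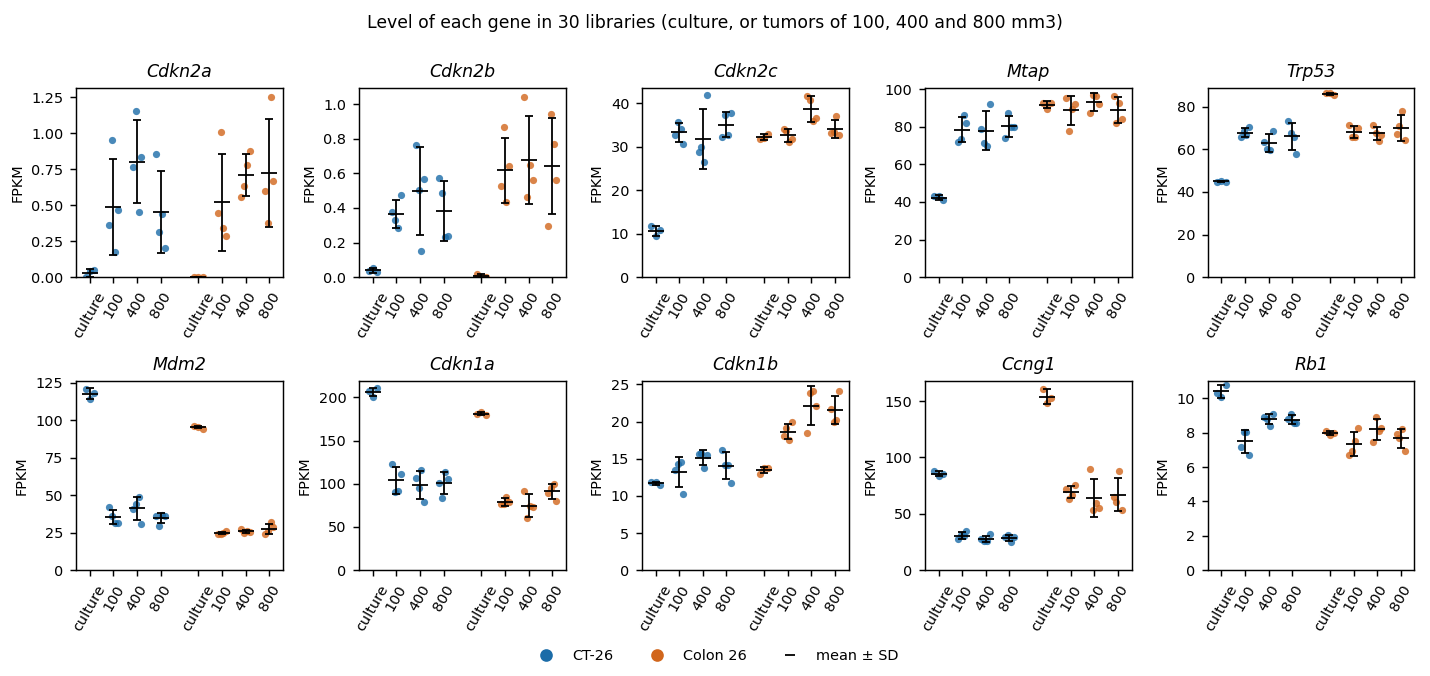
FPKM of each of the 10 genes in every library (points), with the mean and SD of each group (black), for cultures and for tumors of 100, 400 and 800 mm3 of CT-26 (blue) and Colon 26 (orange). Each axis starts at 0 and has its own range. Mdm2, Cdkn1a and Ccng1 are higher in culture than in tumors of both models, Cdkn2a and Cdkn2b lower.

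Colon 26 and CT-26 cultures were compared to find how the lines differ outside the host. Host markers were not all absent there, since 3 of the 4 leukocyte and 4 of the 5 macrophage genes tested were DE lower in Colon 26, and their part in the member differences was not tested. Cdkn2c and Mtap were DE and higher in Colon 26, 2 of the 8 members tested, where 22.9% of all genes tested were DE and 10.6% DE higher. Cdkn2c measured 59.5, 59.0 and 61.2 CPM in the Colon 26 cultures and 20.6, 17.8 and 20.1 CPM in the CT-26 cultures. The groups were far apart, with a log2 fold change of 1.68 (SE 0.05, edgeR adjusted p = 3e-14). Mtap measured 253, 238 and 252 against 120, 125 and 114 CPM, a log2 fold change of 1.10 (SE 0.03, edgeR adjusted p = 6e-14). Trp53 was higher in Colon 26 by 0.92 (SE 0.03), with 151, 146 and 148 against 79.5, 83.2 and 80.0 CPM. Ccng1 was higher by 0.83 (SE 0.04) and Cdkn1b by 0.24 (SE 0.04). Mdm2 (-0.32, SE 0.03), Cdkn1a (-0.19, SE 0.03) and Rb1 (-0.40, SE 0.04) were lower. All 8 tested members passed the adjusted p alone and had groups that did not overlap, against 82.6% and 79.7% of all genes tested. In a joint fit of the 30 libraries Cdkn1a (-0.25, adjusted p = 0.16) and Cdkn1b (0.19, adjusted p = 0.19) missed the adjusted p. Cdkn2a and Cdkn2b were too low for the fit (2-sided exact permutation p = 0.4 and 0.1, the latter the smallest that 3 against 3 libraries allow). The culture libraries of each line carry their own series of library numbers, so a batch and the cell line cannot be told apart. Nothing in the labels says that the 3 libraries of a line came from separate cultures, so that p-values measure only the spread between these libraries. Tumor libraries carry other numbers than the cultures. Both limits therefore hold for every comparison of tumors with cultures and for the interaction with tissue.

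In tumors Ccng1 was the single DE member at each size, 1 of 10 tested, where 13.2%, 14.3% and 14.1% of all genes were DE at 100, 400 and 800 mm3, and 6.17%, 6.48% and 6.5% DE higher in Colon 26. Ccng1 measured 246, 218, 232 and 260 CPM in Colon 26 tumors of 100 mm3 and 101, 108, 105 and 120 CPM in CT-26 tumors. At 400 mm3 the values were 299, 188, 213 and 190 against 100, 94.0, 98.9 and 109 CPM, and at 800 mm3 232, 209, 298 and 187 against 103, 114, 91.4 and 106 CPM. At each size the lowest Colon 26 tumor was above the highest CT-26 tumor. The groups of 47.9%, 43.5% and 48.3% of all genes did not overlap at the 3 sizes. The log2 fold changes were 1.13 (SE 0.08), 1.15 (SE 0.15) and 1.15 (SE 0.13), with edgeR adjusted p of 7.9e-06, 0.00033 and 5.1e-05. Without the highest Colon 26 tumor of 400 mm3 the change was 0.97, under the minimum fold (adjusted p = 4.5e-05).

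Mdm2 went the other way. Its level was 72.5 to 78.7 CPM in Colon 26 and 96.9 to 136 CPM in CT-26 tumors of 100 mm3, and its log2 fold changes at the 3 sizes were -0.57 (SE 0.10), -0.74 (SE 0.15) and -0.39 (SE 0.09), with edgeR adjusted p of 0.0019, 0.0038 and 0.0043 and no overlap of the groups. Cdkn1b, the inhibitor p27, was higher in Colon 26 tumors by 0.51 (SE 0.11), 0.50 (SE 0.11) and 0.61 (SE 0.09) at the 3 sizes, with edgeR adjusted p of 0.004, 0.0055 and 0.00035 and again no overlap. Cdkn1a was lower in Colon 26 by 0.45, 0.48 and 0.21 on the log2 scale (edgeR adjusted p = 0.01, 0.04 and 0.095), and its groups overlapped at 400 and 800 mm3. At 800 mm3 Cdkn1a missed the adjusted p by DESeq2 and limma, with the other scalings and filters and in the joint fit. It also missed it in most fits without 1 library. Cdkn2c was lower in Colon 26 at 100 and 800 mm3 by 0.19 and 0.27 on the log2 scale (edgeR adjusted p = 0.021 and 0.0085, but -0.03 and -0.04 with adjusted p of 0.7 and 0.69 by limma on FPKM), and Rb1 at 800 mm3 by 0.25 (SE 0.07, edgeR adjusted p = 0.0079). Cdkn2b gave 0.71 (SE 0.28), 0.40 (SE 0.43) and 0.69 (SE 0.40), with edgeR adjusted p of 0.065, 0.48 and 0.18. Mtap gave 0.13, 0.20 and 0.08 (SE 0.08 at each size), with edgeR adjusted p of 0.2, 0.081 and 0.44. At 400 mm3 it missed the adjusted p in most fits without 1 library. None of these tumor differences passed the minimum fold. By the adjusted p alone 6, 5 and 6 of 10 members differed at the 3 sizes, against 56.5%, 52.2% and 59.4% of all genes. The groups of 5, 3 and 5 of 10 members did not overlap, against 47.9%, 43.5% and 48.3% of all genes. Trp53 differed by no more than 0.04 in size at any of the 3 sizes (SE 0.05 to 0.08, edgeR adjusted p = 0.52 or more). Cdkn2a gave log2 fold changes of 0.05 (SE 0.55), -0.22 (SE 0.31) and 0.63 (SE 0.47) and no call. At 800 mm3 it was DE without the CT-26 tumor that had 20 counts, the highest of its group (1.09, edgeR adjusted p = 0.069). The CT-26 tumors left then held 10, 12 and 6 counts. Cdkn2a thus passed the filter on low counts mainly through the Colon 26 tumors, so that call adds no support to the counts. Of the host markers, 0 of 6 leukocyte and 0 of 6 endothelial genes were DE between the models at any size. In Colon 26, 5 of 6 T cell genes were DE lower at 400 mm3 and 5 of 5 muscle genes at 800 mm3. The muscle genes there summed to 1.37 to 1.76 CPM, with Myh4 at no more than 3 counts, against 10.1 to 205 CPM in CT-26. Of 7 fibroblast genes 3, 3 and 2 were DE higher and 1 lower at each of the 3 sizes, and 1 of 8 macrophage genes was higher at 400 mm3. The part of host cells in the member differences was not tested. At this depth a moderate difference in Cdkn2a between the tumors was not detectable.

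**Figure D3:**
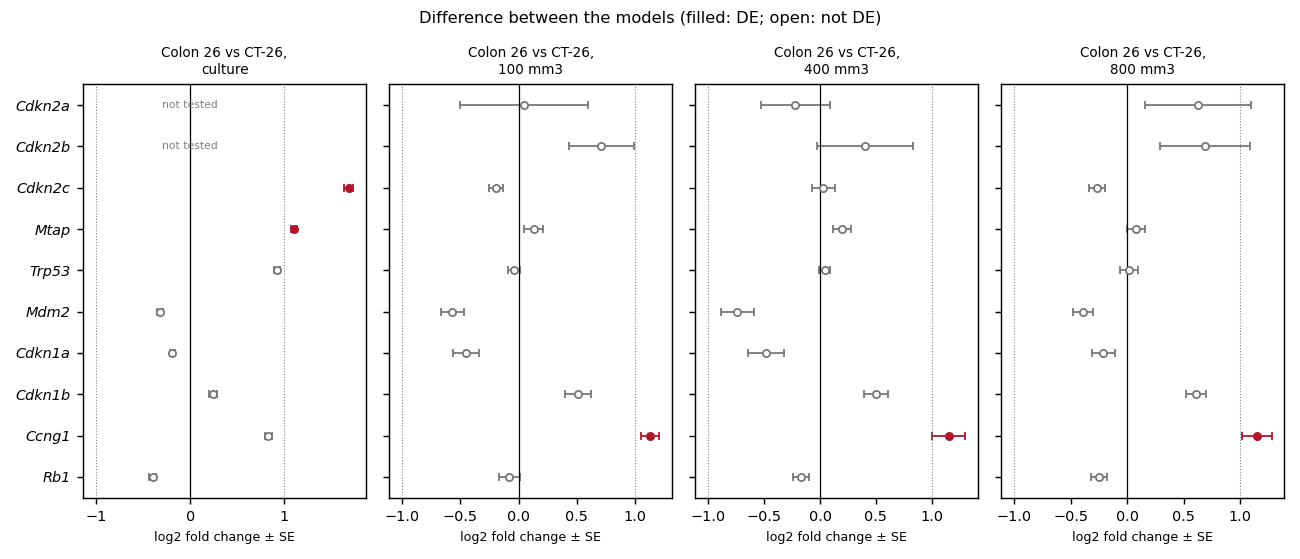
Log2 fold change with its standard error of the 10 genes between Colon 26 and CT-26, in cultures and at each tumor size, from edgeR's quasi-likelihood test (filled red, DE; open grey, not DE; dotted lines at 1 in either direction). Axis ranges differ between panels. Cdkn2c (1.68) and Mtap (1.10) are filled in culture and Ccng1 (1.13 to 1.15) in tumors.

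The difference between the models changed from culture to tumors for some genes. The interaction of model and tissue (tumors of 100 mm3 minus cultures) was DE for 2 of 10 members, against 17.6% of all genes tested. For Cdkn2c it was -1.85 on the log2 scale (SE 0.09, edgeR adjusted p = 6.6e-09), since CT-26 rose from 17.8 to 20.6 CPM in culture to 65.3 to 76.4 CPM in tumors, where Colon 26 measured 61.6 to 64.3 CPM. For Cdkn2b it was 2.92 (SE 0.97, edgeR adjusted p = 0.037), a value that rests on 4 counts in all CT-26 cultures and 1 in all Colon 26 cultures and is no bound. Cdkn2b entered this fit only through the tumor libraries, so the p adds no support to the counts. Its call was lost when the CT-26 culture with 2 counts or either Colon 26 culture with 0 counts was left out (edgeR adjusted p = 0.15, 0.11 and 0.11). Limma on log2(FPKM + 1) and log2(FPKM + 0.1) gave 0.28 and 0.98, under the minimum fold. Mtap (-0.96, SE 0.10) and Trp53 (-0.96, SE 0.05) passed the adjusted p (3.1e-06 and 2.1e-08 by edgeR) and not the minimum fold. Ccng1 (0.31, SE 0.10) and Rb1 (0.33, SE 0.11) also passed the adjusted p, which makes 6 of 10 members against 51.0% of all genes, and Mdm2 (-0.24, SE 0.12), Cdkn1a (-0.24, SE 0.13) and Cdkn1b (0.27, SE 0.14) did not.

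Tumors of 100 mm3 were next compared with cultures of the same line, where a batch and the tissue cannot be told apart. In CT-26, Cdkn2b and Cdkn2c were DE higher and Mdm2 and Ccng1 DE lower, 4 of 9 members tested, where 32.2% of all genes were DE, 22.2% higher and 10.1% lower. In Colon 26, Cdkn2a and Cdkn2b were DE higher and Mdm2, Cdkn1a and Ccng1 DE lower, 5 of 10, against 26.9%, 20.8% and 6.11%. Mdm2 measured 373, 367 and 366 CPM in CT-26 cultures and 136, 113, 97.4 and 96.9 CPM in the tumors. In Colon 26 it measured 290, 282 and 284 CPM in culture and 72.5, 73.8, 75.4 and 78.7 CPM in tumors. Mdm2 thus fell in both models, with log2 fold changes of -1.73 (SE 0.11) and -1.92 (SE 0.03), with edgeR adjusted p of 5e-06 and 8.3e-10. Ccng1 fell from 308, 305 and 301 CPM to 101 to 120 CPM in CT-26, and from 552, 493 and 520 CPM to 218 to 260 CPM in Colon 26. Its log2 fold changes were -1.48 (SE 0.07) and -1.12 (SE 0.06), with edgeR adjusted p of 1.2e-06 and 4.2e-07.

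Cdkn1a measured 380, 384 and 387 CPM in CT-26 cultures and 243, 170, 171 and 205 CPM in their tumors of 100 mm3. In Colon 26 it measured 326, 320 and 324 CPM in culture and 139, 140, 159 and 143 CPM in tumors. The groups did not overlap in either model, as was so for 72.4% of all genes in CT-26 and 75.0% in Colon 26. The change was -0.96 in CT-26 (SE 0.11, edgeR adjusted p = 0.00012), just under the minimum fold and -1.06 without the highest tumor, and -1.15 in Colon 26 (SE 0.05, edgeR adjusted p = 6e-08). The exons of Cdkn1a overlap an annotated gene on the other strand, AC167363.2, and its counts were not whole numbers, so a share of its reads may have been divided between them.

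Trp53 moved in opposite directions in the models. In CT-26 it rose by 0.60 (SE 0.05, edgeR adjusted p = 1.6e-05), from 79.5 to 83.2 CPM in culture to 118 to 124 CPM in tumors, and in Colon 26 it fell by 0.31 (SE 0.04, edgeR adjusted p = 4.8e-05), from 146 to 151 CPM to 115 to 124 CPM. The ratio of Mdm2 to Trp53 in FPKM, chosen after the values were seen, was 2.62 ± 0.0840 (SD, n = 3) in CT-26 cultures and 1.11 ± 0.00388 in Colon 26 cultures. It was 0.337 to 0.820 over all tumors. Mtap rose in CT-26 tumors by 0.89 (SE 0.07, edgeR adjusted p = 9.8e-06) and gave -0.02 in Colon 26 (SE 0.06, adjusted p = 0.77). Cdkn2c rose by 1.88 in CT-26 (SE 0.09, edgeR adjusted p = 1.2e-06) and gave 0.08 in Colon 26 (SE 0.04, edgeR adjusted p = 0.08, or 0.16 by DESeq2). Cdkn1b rose by 0.55 in Colon 26 (SE 0.05, edgeR adjusted p = 9.8e-06) and gave 0.23 in CT-26 (SE 0.12, adjusted p = 0.12). Rb1 fell by 0.47 in CT-26 (SE 0.08, edgeR adjusted p = 0.00096) and gave -0.10 in Colon 26 (SE 0.07, adjusted p = 0.22); its exons overlap Lpar6 and Rcbtb2 on the other strand.

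**Figure D4:**
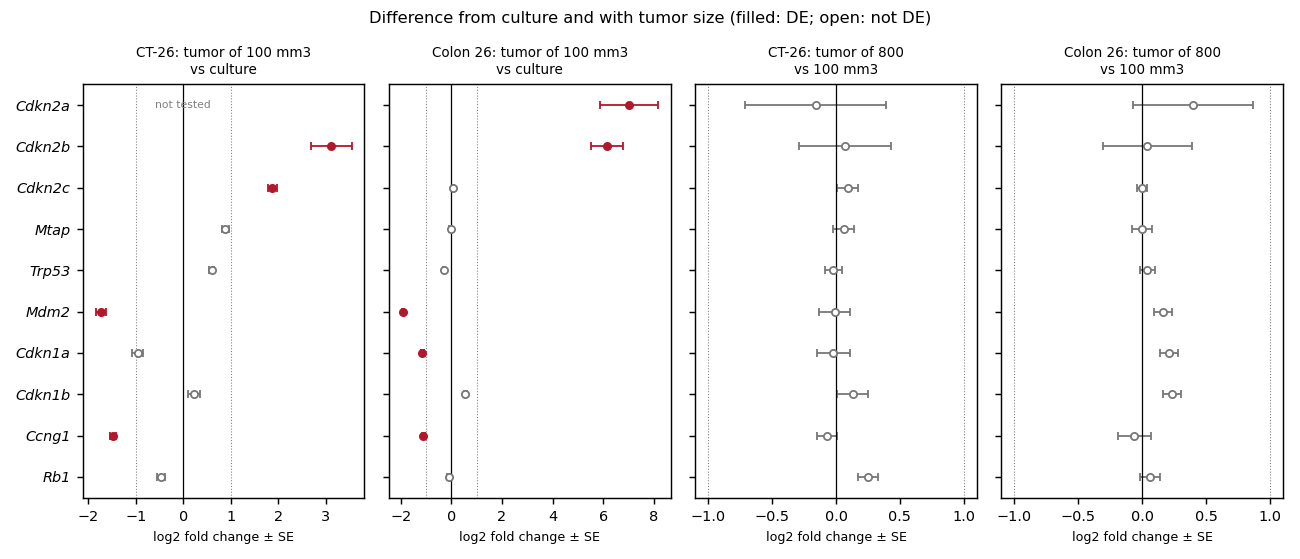
Log2 fold change with its standard error of the 10 genes between tumors of 100 mm3 and culture and between tumors of 800 and 100 mm3, within each model (filled red, DE; open grey, not DE; dotted lines at 1 in either direction). Axis ranges differ between panels, and the Cdkn2a and Cdkn2b values against culture are fitted against groups near 0 counts and are no bounds. Mdm2 and Ccng1 lie to the left of -1 in both models against culture, and no gene is filled between the sizes.

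Size was compared within each model. No member was DE between 800 and 100 mm3 in either model. In CT-26 no gene at all was DE by edgeR (0.0% of 15298), with 1610 at an unadjusted p under 0.05 and 39 DE by DESeq2. In Colon 26 1.33% of genes were DE. Among members the log2 changes in CT-26 ran from -0.16 (Cdkn2a, SE 0.55) to 0.25 (Rb1, SE 0.08, edgeR adjusted p = 0.42), and Rb1 was the 1 member whose groups did not overlap, against 5.08% of all genes. In Colon 26 they ran from -0.06 (Ccng1, SE 0.13) to 0.40 (Cdkn2a, SE 0.47). The smallest edgeR adjusted p there was 0.12, for Cdkn1b (0.23, SE 0.07). Nor was the change of the model difference with size DE for any member, with 0.0308% of all genes DE by edgeR. Of the members, 1 in CT-26 and 3 in Colon 26 had an unadjusted p under 0.05, and 0 for the change of the model difference.

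Over the 24 tumors the genes most like Cdkn1a in log2 CPM were Nfkbib, an inhibitor of NF-kappaB (Pearson r = 0.864), and Dusp5, a phosphatase of MAP kinases (0.846), out of 13509 genes. The tumors share model and size groups, and the values are a description. For Cdkn2a no such genes are given, because its median was 14.5 counts per tumor.

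Other p53 targets were read from a list of 28 genes that holds none of the 10 members. In tumors of 100 mm3 against culture, 5 of 26 tested were DE higher and 11 DE lower in CT-26, with a median log2 fold change of -0.68 (0.06 over all genes), and 1 of 27 DE higher and 12 DE lower in Colon 26, with a median of -0.90 (0.05 over all genes). The shares over all genes were 22.2% higher and 10.1% lower in CT-26 and 20.8% and 6.11% in Colon 26. Of the genes that fell, 10 were DE lower in both models, which is 90.9% of those in CT-26 and 83.3% of those in Colon 26. The same share over all genes DE lower was not computed, so this overlap is a description. In CT-26 the strongest falls were those of Trp53inp1, a regulator of autophagy and cell death (-3.19, SE 0.15, 77.8 to 8.47 CPM) and Trp53cor1, a noncoding RNA also called lincRNA-p21 (-2.01, SE 0.16). In Colon 26 they were those of Gdf15, a stress cytokine (-4.17, SE 0.11, 53.6 to 2.97 CPM), and Trp53cor1 (-2.30, SE 0.17). Pmaip1 (226 counts in the tumors and 4 in the cultures, a ratio of 37.5, interval 14.4 to 139) and the sulfatase Sulf2 (3.43, SE 0.41) rose in CT-26. Sesn1, a stress-induced inhibitor of mTORC1, rose in both models (1.77, SE 0.20, in CT-26 and 1.55, SE 0.12, in Colon 26). These genes had edgeR adjusted p of 0.00011 or less. Pmaip1 passed the filter on low counts only through the CT-26 tumors, so its p adds no support to the counts.

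Between the cultures 6 of 27 p53 targets were DE higher in Colon 26 and 2 DE lower, where 22.9% of all genes were DE (median 0.47, against 0.01 over all genes). Gdf15 had a mean of 53.6 CPM in Colon 26 and 0.0976 CPM in CT-26 (edgeR adjusted p = 1.7e-18), or 6403 and 7 counts in all, a ratio of 554 (95% exact binomial interval 269 to 1379). Pmaip1, which encodes the cell death protein Noxa, had 28.2 and 0.0573 CPM (edgeR adjusted p = 3.2e-17), or 3364 and 4 counts, a ratio of 509 (interval 199 to 1871). Both genes passed the filter on low counts only through the Colon 26 libraries, so these p-values describe the counts and add no support to them. Plk2, a kinase (-1.46, SE 0.03), and Tigar, a phosphatase of sugar metabolism (-1.36, SE 0.05), were lower. In tumors 3 of 27 were DE higher and 1 lower at each size, near the 13.2%, 14.3% and 14.1% of all genes DE. Pmaip1 remained higher in Colon 26 by 3.77, 4.33 and 3.79 and Gdf15 by 3.7, 3.5 and 3.26 on the log2 scale at the 3 sizes (SE 0.19 to 0.44, edgeR adjusted p = 0.00014 or less). Gdf15 again passed the filter only through the Colon 26 tumors, with means of 0.23, 0.308 and 0.322 CPM in the CT-26 tumors. Between 800 and 100 mm3 none was DE by edgeR in either model. By the adjusted p alone 0 passed in CT-26 and 2 in Colon 26, where 1028 of 15404 genes did.

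**Figure D5:**
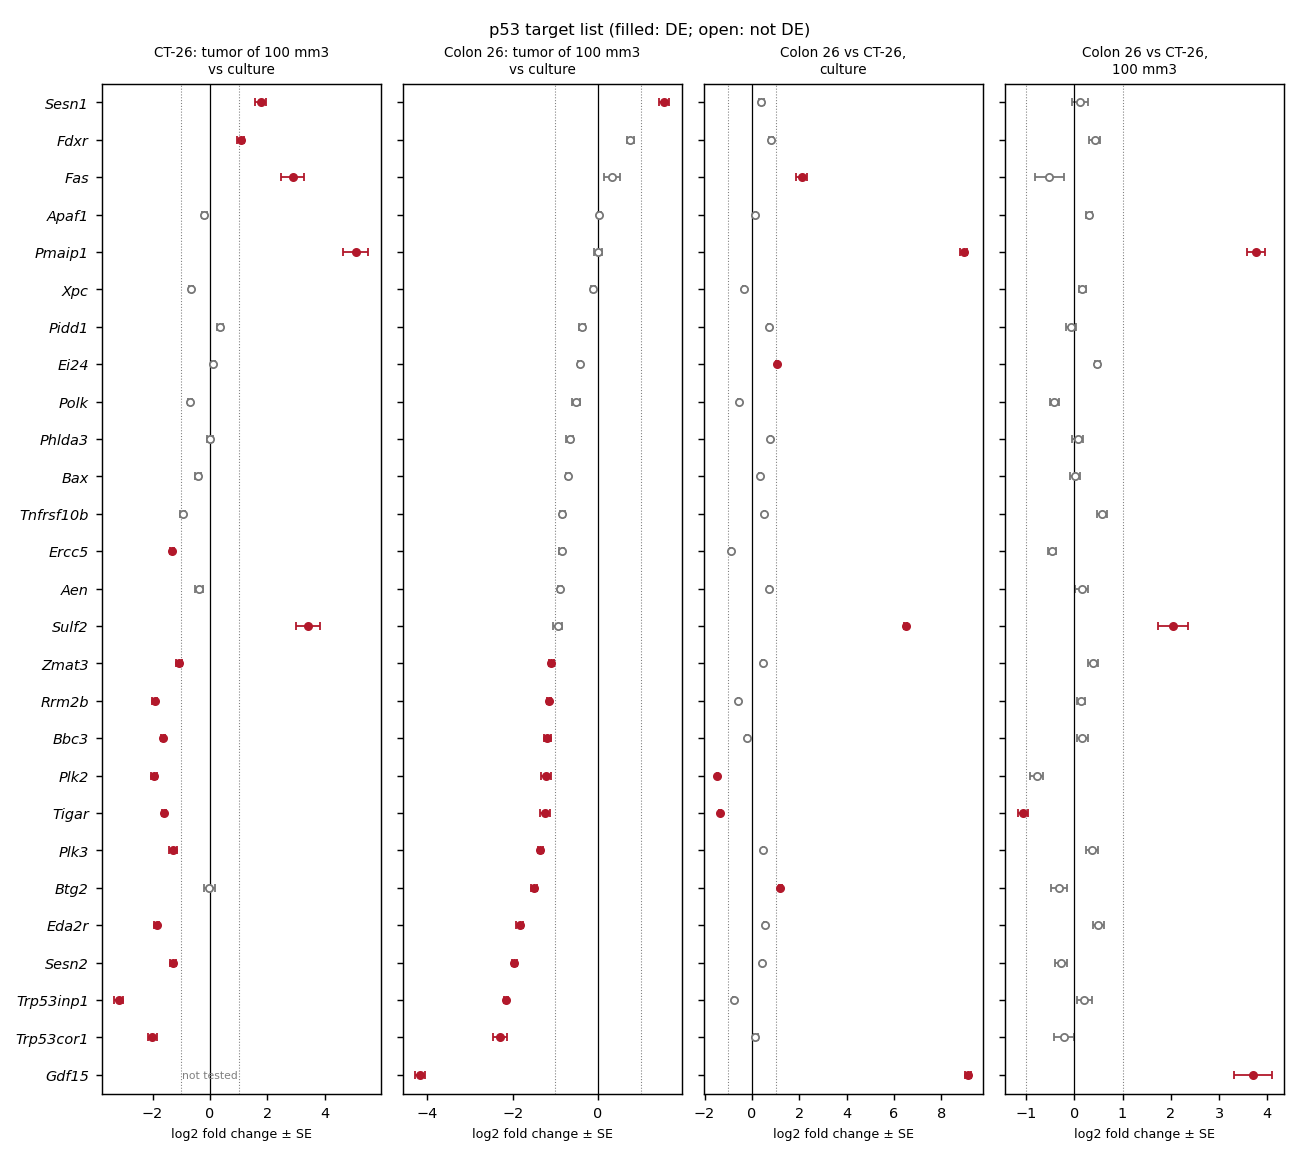
Log2 fold change with its standard error of 27 genes of the p53 target list (Perp is not drawn), for tumors of 100 mm3 against culture in each model and for Colon 26 against CT-26 in culture and at 100 mm3 (filled red, DE; open grey, not DE; dotted lines at 1 in either direction). Genes are ordered by their change in Colon 26, and axis ranges differ between panels. In both models more genes are filled on the left than on the right against culture (11 and 12 lower, 5 and 1 higher).

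Cell cycle genes and p53 regulators were read from 4 more lists. The shares of all genes DE to set beside their counts are 22.9% between the cultures and 13.2% to 14.3% between the tumors. They are 32.2% and 26.9% for CT-26 and Colon 26 tumors against culture and 17.6% for the interaction. The counts of the Rb family and E2F genes were near or below them in cultures and in CT-26 tumors. They were above them for the interaction, which was DE and negative for 4 of 12 (median -0.55) and DE and positive for 0. E2f8 (-1.35, SE 0.09) and Rbl1 (-1.32, SE 0.11) had the largest of these changes. Those of the G1 list and of the p53 regulators were below them in all of these comparisons. Of 14 proliferation genes 8 were DE higher in Colon 26 than in CT-26 cultures and 0 lower (median 1.21), led by cyclin A2 (Ccna2, 2.18, SE 0.04, 220 against 50.3 CPM) and the ribonucleotide reductase subunit Rrm2 (1.73, SE 0.03). In tumors none of the 14 was DE at any size by edgeR. By the adjusted p alone 10, 10 and 11 were lower in Colon 26 and 0, 2 and 0 higher (medians -0.34, -0.31 and -0.44). The shares of all genes that passed it, in either direction, were 56.5%, 52.2% and 59.4%. Against culture 10 of 14 were DE higher in CT-26 tumors (median 1.42) and 0 in Colon 26 tumors (median -0.03, with 5 higher and 7 lower by the adjusted p alone). In Colon 26 12581 of all 15946 genes tested passed the adjusted p alone. The interaction was DE and negative for 11 of 14 (Rrm2 -2.41, SE 0.13; Ccna2 -2.12, SE 0.07), beside that of Cdkn2c. Of 12 Rb family and E2F genes 3 were DE higher and 0 lower in Colon 26 cultures, including E2f8 (1.34, SE 0.04) and Tfdp2 (1.14, SE 0.04), and 3 were DE higher in CT-26 tumors against culture, including E2f2 (2.21, SE 0.20) and E2f8 (1.82, SE 0.08). Of the 11 G1 kinases, cyclins and other inhibitors, Ccnd2 (cyclin D2) was lower in Colon 26 in cultures (-1.05, SE 0.03) and at 100, 400 and 800 mm3 (-1.0, -1.08 and -0.79, SE 0.07 to 0.08, edgeR adjusted p of 3.1e-05 or less), past the minimum fold in cultures and at 400 mm3. Cdkn1c, the inhibitor p57, was DE higher in Colon 26 tumors of 100 and 800 mm3 (1.23, SE 0.40, and 1.59, SE 0.42). Its means were under 1 CPM, at 0.623 against 0.261 CPM and 0.65 against 0.214 CPM. Cdkn1c thus passed the filter on low counts mainly through the Colon 26 tumors, so its calls add no support to the counts. Of 13 p53 regulators and relatives, 12 were tested in cultures. There the p53 relative Trp63 (2.96, SE 0.17, 4.89 against 0.643 CPM) and the checkpoint kinase Chek1 (1.25, SE 0.08) were DE higher in Colon 26 and 0 DE lower. By the adjusted p alone 6 were higher and 4 lower, against 82.6% of all genes in either direction. The interaction was DE and negative for Trp63 (-3.62, SE 0.44) and Chek1 (-1.23, SE 0.12). Chek2, another checkpoint kinase, was DE lower in Colon 26 tumors of 800 mm3 (-1.36, SE 0.09).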

How the data were processed

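Poly-A mRNA of 30 libraries was sequenced in paired ends. Per the labels and methods, the authors quantified reads in Array Studio against Ensembl release 78 and deposited estimated counts and FPKM per gene; their notes name DESeq2 1.24.0, and the aligner, genome build and strand setting are not given in the sources used here. Of the deposited nonzero estimated counts, 23.0% were not whole, so counts were rounded before testing, although integer counts had been foreseen. Gene identifiers were matched to GENCODE M21 (52207 of 53431). Groups came from the sample labels, and replicate numbers only name libraries.

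Only the libraries compared entered each fit, made with edgeR 4.0.16 (R 4.3.3) with TMM normalization, filterByExpr, the quasi-likelihood test and Benjamini-Hochberg adjustment over all genes tested. CPM used TMM-scaled totals. Members too low for the fit had a 2-sided exact permutation test of CPM. SE was the size of the log2 fold change divided by the square root of F. Ratios of few counts had exact binomial intervals. The steps were tested on simulated data. Alternatives were DESeq2 1.42.0, RLE or library-size scaling, no filter, a minimum of 10 counts in each library, a joint fit of the 30 libraries, limma 3.58.1 on log2(FPKM + 1) and log2(FPKM + 0.1), other thresholds and leaving out each library. Python 3.11.15 with scipy 1.17.1 and matplotlib 3.10.9 made the summaries and plots.

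The members and gene lists were chosen with earlier results of these data known, and the motifs, sequence windows and ratios after the values were seen. From each list, up to 2 DE genes with the largest rise and up to 2 with the largest fall were eligible to be named, and of the neighbours of Cdkn2a those with 10 counts in any library. Of the 3 genes most like Cdkn1a, 1 is not reported here.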

Additional observations from a re-analysis of the deposited data

Results flagged for a closer look

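Rb1 in CT-26 tumors of 800 mm3 had 1 library apart from the others, at 44.3 CPM against 40.9, 41.2 and 41.4 CPM. Its gap to the nearest library was 0.844 of the group's range, above Dixon's 95% critical value for 4 samples. It was the 1 such case among 60 groups of 4 libraries, where chance gives about 1 in 20.

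In the interaction of edgeR's fit, the difference between the models changed from culture to tumors for Cdkn2c, by -1.85 on the log2 scale. For Cdkn2b the fit gave 2.92, a value that rests on 4 counts in all CT-26 cultures and 1 in all Colon 26 cultures. Cdkn2b entered that fit only through the tumors. Its call was lost without CT-26 culture replicate 2 and without Colon 26 culture replicate 2 or 3.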

How the results depend on the processing

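No paired analysis was possible because the labels carry no replicate numbers. Of 1835 log2 fold changes of members under the alternatives, 1727 kept their direction and their DE call or lack of one, 33 gained a call, 9 lost one and 66 changed sign; for losses not given a reason here, the cause was not tested. Without the minimum fold, which by construction adds calls, 8, 6, 5, 6, 8, 8 and 6 members passed in cultures, tumors of 100, 400 and 800 mm3, CT-26 and Colon 26 tumors against culture and the interaction with tissue, and 11842, 8710, 7963, 9213, 11601, 12581 and 8421 genes, with 1028 between the sizes in Colon 26 and 13 in the change of the model difference with size. With at least 10 counts in every library, which tests fewer genes, the genes DE were 1996 in cultures, 1356 and 1433 in tumors of 100 and 400 mm3, 2527 and 1818 against culture, 90 between sizes in Colon 26, 1487 for the interaction and 0 for its change with size, and members 3 in Colon 26 against culture and 1 for the interaction, since Cdkn2a and Cdkn2b were not tested. Limma on log2(FPKM + 1) gave 1519, 861, 951, 914, 2648, 1946, 62, 1255 and 3 genes in the same order with 800 mm3 included, and 3 and 1 members, with Cdkn2a and Cdkn2b at 0.39 to 0.68 against culture. With a pseudocount of 0.1 the interaction had 1 member, CT-26 sizes 1 gene and the change of the model difference 17. Between sizes DESeq2 gave 39 genes in CT-26, 309 in Colon 26 and 114 for the change of the model difference, and 1 fit of all libraries 92, 100 and 39. That last count, 5 as reported, was 2 at an adjusted p of 0.05 and 3 with library-size scaling or no filter. No filter gave 3469 genes at 800 mm3. By the adjusted p alone, 47 member results passed as reported, and 10 of them missed it in 48 of 747 values under the alternatives, 23 of these without 1 library: Cdkn1a and Cdkn1b in cultures, Cdkn2b and Cdkn2c at 100 mm3, Mtap at 400 mm3, Cdkn1a and Cdkn2c at 800 mm3, Cdkn2c in Colon 26 against culture, and Cdkn2b and Ccng1 in the interaction. The joint fit of all libraries called 3 members DE in cultures, 2 higher and 1 lower, the last being 1 of Cdkn2a and Cdkn2b, which were too low for the fit as reported.

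Leaving out 1 library gave 3383 to 3595 genes and 2 members in cultures, 2045 to 2269 and 1 at 100 mm3, 2152 to 2466 and 0 to 1 at 400 mm3, 2254 to 2479 and 1 to 2 at 800 mm3, 4638 to 5253 and 3 to 5 in CT-26 against culture, 3993 to 4486 and 4 to 5 in Colon 26 against culture, 0 to 2 and 0 between sizes in CT-26, 150 to 290 and 0 in Colon 26, 2761 to 2985 and 1 to 2 for the interaction, and 2 to 128 and 0 for its change with size. Cdkn2b was not tested without CT-26 tumor 100 replicate 2 or 4, nor Cdkn2a without Colon 26 tumor 100 replicate 1, 2 or 3.

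The changes of sign were all in values of at most 0.22 in size as reported, with adjusted p of 0.52 or more, and at most 0.49 under the alternative, with adjusted p of 0.33 or more, from edgeR, limma or DESeq2. Between the sizes in CT-26 Cdkn2b (0.07) gave 0.00 under other settings and -0.16 to 0.25 without 1 library, Mdm2 (-0.01) gave -0.07 to 0.10 without 1 library, Cdkn1a (-0.02) gave -0.09 to 0.09 without 1 library, Cdkn2a (-0.16) gave -0.61 to 0.40 without 1 library, Trp53 (-0.02) gave -0.06 to 0.04 without 1 library. Between the sizes in Colon 26 Cdkn2c (0.00) gave 0.00, 0.01, 0.02 or 0.06 under other settings and -0.02 to 0.02 without 1 library, Mtap (0.00) gave 0.00 or 0.01 under other settings and -0.06 to 0.03 without 1 library, Cdkn2b (0.04) gave 0.00 under other settings and -0.21 to 0.28 without 1 library, Trp53 (0.04) gave -0.01 to 0.07 without 1 library, Ccng1 (-0.06) gave -0.20 to 0.03 without 1 library. In Colon 26 tumors against culture Mtap (-0.02) gave 0.02 under other settings and -0.05 to 0.04 without 1 library. In the change of the model difference with size Cdkn2b (-0.04) gave 0.00 under other settings and -0.29 to 0.21 without 1 library, Ccng1 (0.01) gave -0.13 to 0.10 without 1 library. Between the models at 100 mm3 Trp53 (-0.04) gave 0.01 under other settings, Cdkn2a (0.05) gave -0.49 to 0.61 without 1 library. Between the models at 400 mm3 Cdkn2c (0.03) gave -0.02 to 0.14 without 1 library, Cdkn2a (-0.22) gave -0.41 to 0.02 without 1 library. Between the models at 800 mm3 Trp53 (0.02) gave -0.04 to 0.07 without 1 library. Other scalings moved the median of all genes by at most 0.07. Depth limits Cdkn2a and Cdkn2b, at 4 to 43 counts per tumor.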
